A study of Mus musculus with 12 samples.

Results

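The genes described here are 10 transcription factors, enzymes and regulators of the integrated stress response and the unfolded protein response: Atf3, Atf4, Atf5, Atf6, Ddit3, Xbp1, Trib3, Asns, Chac1 and Sesn2. They were chosen by name, and matched 11 of the 61210 rows of the count table, since Ddit3 has 2 rows. All 10 symbols had a row that passed the filter on low counts, among 16737 genes tested. The second Ddit3 row, an annotated gene of 2925 bases that lies inside the first on the same strand, held between 0 and 4 counts per library and was not tested.

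Total RNA was sequenced from interscapular brown adipose tissue (iBAT) of wild type C57BL/6N mice aged 20 weeks, in 12 libraries of 1 mouse each. The 4 groups of 3 mice were control diet (NCD, V1554) at 22 °C, NCD with 24 h at 4 °C, high-fat diet (HFD, D12492 (I) mod.) at 22 °C and HFD with 24 h at 4 °C. The HFD groups received that diet for 12 weeks from 8 weeks of age. The series' own design text calls the tissue inguinal, whereas the sample labels and the study's methods give iBAT, which is used here. Ucp1 and the other 8 genes listed as brown adipocyte markers were all detected, but detection cannot tell these depots apart. The list includes Adipoq and Pparg, which the paper calls common adipocyte markers, and the paper also reports Ucp1 expression in inguinal fat.

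Cells slow protein synthesis and raise a repair programme when proteins misfold or amino acids run short. In the integrated stress response, kinases phosphorylate the initiation factor eIF2, which lowers general translation while the message of the transcription factor ATF4 is translated more. ATF4 then raises genes for amino acid supply, tRNA charging and feedback. In the unfolded protein response, the endoplasmic reticulum (ER) sensors PERK, IRE1 and ATF6 act through ATF4, through splicing of the Xbp1 message and through cleavage of ATF6 itself, and raise chaperones and the degradation machinery of the ER. Brown fat is known to release the hormones FGF21 and GDF15, both of which are outputs of this response, and to make ER and mitochondrial proteins in large amounts in the cold. Much of the control of Atf4, Atf5, Ddit3, Xbp1 and Atf6 lies in translation, splicing or cleavage, which counts per gene do not measure.

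Libraries held between 15136861 and 46740702 counts, and Spearman correlations between libraries of a group ran from 0.964 to 0.986. Levels are given in CPM, counts scaled to the size of the library with TMM factors, and they are compared between libraries and not between genes. Replicates 1 and 2 of every group belong to 1 batch in the labels and replicate 3 to another. In bulk tissue, fewer cells of a type and less RNA per cell cannot be told apart, and p-values measure the spread between these 3 mice per group. A gene was called at a Benjamini-Hochberg adjusted p under 0.05 with an absolute log2 fold change over 0.5, in edgeR's quasi-likelihood test over all genes. The test of any difference among the 4 groups used an adjusted p under 0.001. Over the 16737 genes tested, edgeR's unadjusted p was under 0.05 for 3670 in the cold on NCD and 4595 in the cold on HFD. For HFD against NCD it was under 0.05 for 3033 at 22 °C and 3802 at 4 °C. DESeq2 called 1446, 2052, 823 and 1323 genes in that order.

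A single library, replicate 1 of HFD at 4 °C, held the highest level of 8 of the 10 genes, or 80.0%, where it held the highest level of 13.9% of all genes tested. The exceptions were Xbp1 and Chac1, which were highest in HFD at 22 °C replicate 2 and in NCD at 4 °C replicate 2. In that library 9 of the 10 genes exceeded every HFD library at 22 °C, with a median log2 ratio of 1.54 to the mean of those libraries. In HFD at 4 °C replicates 2 and 3 the same was true of 4 and 5 genes, with medians of 0.12 and 0.36. Among all genes tested, 31.7%, 29.4% and 30.1% exceeded every HFD library at 22 °C in replicates 1, 2 and 3. Results that rest on this library are therefore given with and without it, and why it stood apart was not tested.

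**Figure D1:**
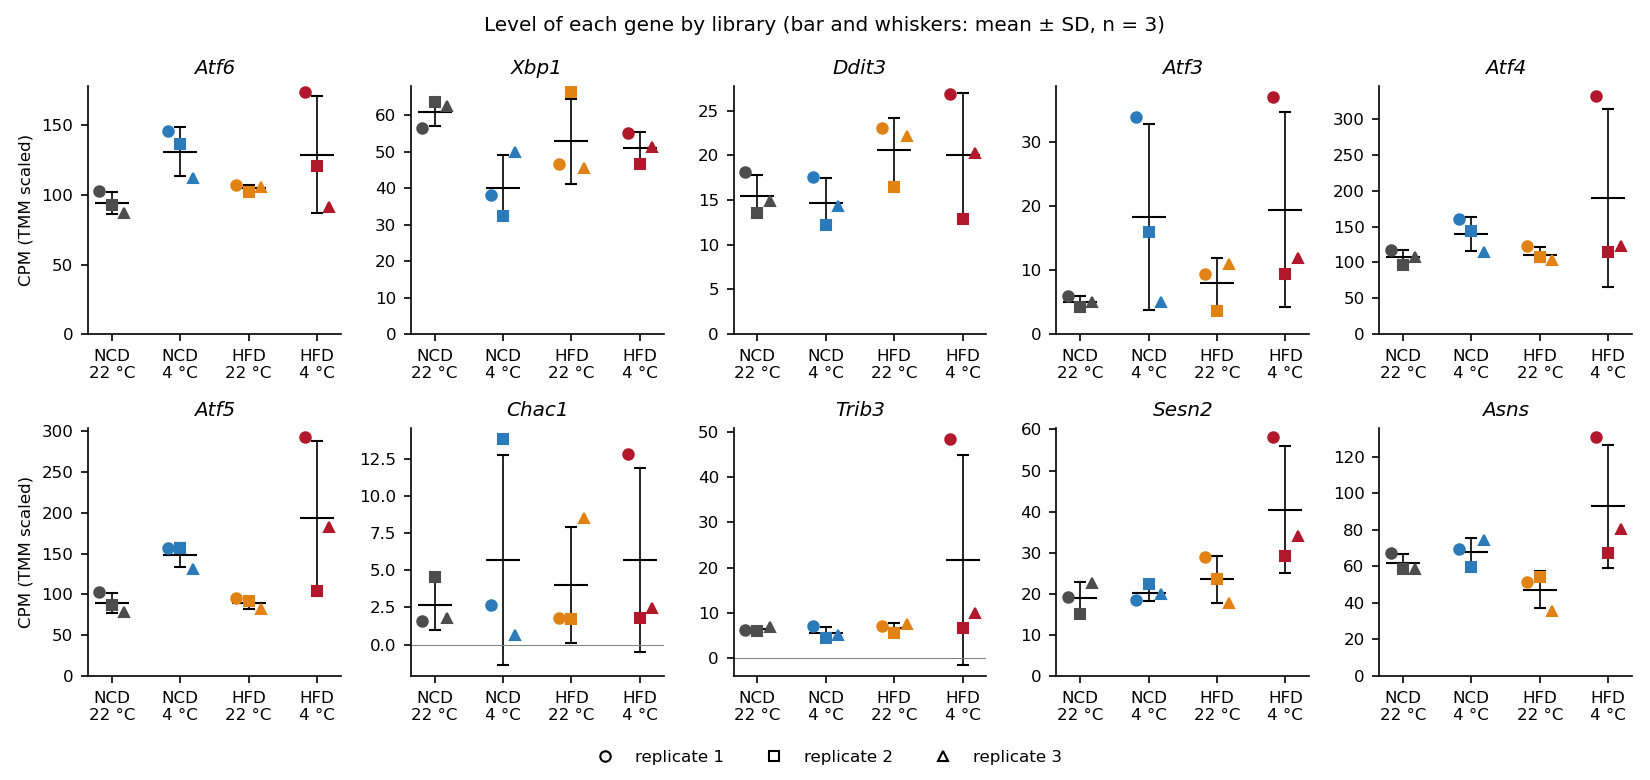
Level in CPM of the 10 genes (y axes, separate scales) in the 4 groups (x axes). Circles, squares and triangles are replicates 1, 2 and 3, and the bars and whiskers are the mean ± SD of 3 libraries, which for some genes extends below 0. The circle of HFD at 4 °C is the highest point for 8 genes, from 26.9 CPM for Ddit3 to 333 CPM for Atf4.

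Of the ER sensors and their direct effectors, neither Atf6 nor Xbp1 passed the threshold in any comparison. Atf6 (chr1:170704674-170867771, minus strand, GRCm38), whose protein is cleaved at the Golgi to give a transcription factor for ER chaperones, stood at 103, 92.8 and 87.0 CPM on NCD at 22 °C and at 146, 137 and 112 CPM on NCD at 4 °C (replicates 1, 2 and 3). On HFD it stood at 107, 102 and 106 CPM at 22 °C and at 174, 121 and 91.1 CPM at 4 °C. The NCD groups did not overlap, whereas on HFD the cold libraries lay on both sides of the warm ones. The log2 fold change in the cold was 0.48 (edgeR adjusted p = 0.171, SE 0.19) on NCD and 0.29 (adjusted p = 0.361, SE 0.19) on HFD.

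Xbp1 (chr11:5520659-5525893, plus strand), the substrate of the IRE1 ribonuclease, was the one member that lay lower in every cold NCD library than in every warm one. It stood at 56.4, 63.6 and 62.5 CPM on NCD at 22 °C and at 38.1, 32.4 and 49.8 CPM on NCD at 4 °C, without overlap. On HFD it stood at 46.5, 66.2 and 45.6 CPM at 22 °C and at 55.1, 46.6 and 51.2 CPM at 4 °C, where the groups overlapped. The cold effect on NCD was a log2 fold change of -0.60 (adjusted p = 0.0617, SE 0.18), and over the alternatives its adjusted p ran from 0.0117 to 0.198. On HFD the fold change was -0.05 (adjusted p = 0.884, SE 0.17), and the difference between the diets, 0.55 on the log2 scale (SE 0.25), had an unadjusted p of 0.0470 and an adjusted p of 0.765.

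These counts sum all Xbp1 messages, spliced or not. The stretch that IRE1 removes is shown because its loss, and not the level of the gene, makes the active factor; the capitals mark its 26 bases, and the lower case letters its flanks in the coding sequence, from GENCODE M21.
Xbp1: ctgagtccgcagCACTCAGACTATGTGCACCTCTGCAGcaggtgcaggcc
All 3 protein-coding Xbp1 transcripts of that annotation hold the stretch, so the annotated transcripts used here do not tell the spliced form from the unspliced form. How much of the message was spliced was therefore not measured.

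The list of 5 ER stress sensors and their proteases, which includes Ern1 and the site proteases that cleave ATF6, had 0 genes called in each of the 4 comparisons by edgeR and by DESeq2. At an unadjusted p under 0.05 the cold comparisons held 1 gene (NCD) and 2 genes (HFD), and the diet comparisons 0 (22 °C) and 1 (4 °C). The 12 eIF2 kinases, phosphatase subunits and eIF2B subunits also had 0 called by edgeR, against 4, 6, 4 and 1 at an unadjusted p under 0.05, and 1, 1, 0 and 0 by DESeq2. Of these, Eif2b5 in the cold on NCD (0.47, adjusted p = 0.0133) and on HFD (0.39, adjusted p = 0.0242) and Eif2b4 in the cold on HFD (0.46, adjusted p = 0.0349) passed the adjusted p and missed only the limit of 0.5 on the log2 fold change. Eif2b4 and Eif2b5 encode subunits of the exchange factor that phosphorylated eIF2 inhibits, and they were named after their values had been seen.

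The stress factors Ddit3 and Atf3 showed no called difference. Ddit3 (chr10:127290774-127296288, plus strand) encodes CHOP, a partner of C/EBP proteins linked to cell death under lasting ER stress. It stood at 18.1, 13.6 and 14.9 CPM on NCD at 22 °C, at 17.6, 12.2 and 14.3 CPM on NCD at 4 °C, at 23.1, 16.5 and 22.2 CPM on HFD at 22 °C and at 26.9, 12.9 and 20.3 CPM on HFD at 4 °C. All groups overlapped. The log2 fold change of HFD was 0.41 (adjusted p = 0.414, SE 0.25) at 22 °C and 0.44 (adjusted p = 0.319, SE 0.25) at 4 °C, and the cold effects were -0.08 and -0.04 (SE 0.25 each). Ddit3 shares 68 bases with Mars on the other strand, and whether counting used the strand was not given in the sources used here.

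Atf3 (chr1:191170296-191218039, minus strand), an early stress repressor and activator of the same factor family, varied more between mice of the cold groups than of the warm groups. It stood at 5.97, 4.24 and 4.97 CPM on NCD at 22 °C and at 33.8, 15.9 and 5.04 CPM on NCD at 4 °C. On HFD it stood at 9.34, 3.61 and 10.9 CPM at 22 °C and at 37.0, 9.42 and 11.9 CPM at 4 °C. High levels were thus found in replicate 1 of both cold groups, while NCD at 4 °C replicate 3 lay within the range of the warm libraries. The log2 fold change in the cold was 1.84 (adjusted p = 0.136, SE 0.69) on NCD and 1.28 (adjusted p = 0.242, SE 0.67) on HFD, and the latter was 0.45 without HFD at 4 °C replicate 1 (adjusted p = 0.721). Of the 10 immediate early genes tested, which mark recent stimulation and also tissue handling, 0 were called by edgeR in the 4 comparisons. Of all genes, 3.72% and 5.39% were called higher in the cold on NCD and HFD, and 2.55% and 4.19% lower. For HFD at 22 °C and 4 °C, 0.992% and 2.06% were called higher, and 1.09% and 2.69% lower. An unadjusted p under 0.05 was found for 0, 1, 0 and 1 of them, and DESeq2 called 1, for HFD at 4 °C. In HFD at 4 °C replicate 1, 2 of these 10 had their highest level, against 13.9% of all genes tested. The median log2 ratio of the 10 to the mean of HFD at 22 °C was 0.59 in that library. It was -0.37 and -0.16 in replicates 2 and 3 of HFD at 4 °C. The part of stimulation or handling in that library was not tested.

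Atf4 (chr15:80255184-80257541, plus strand), the central factor of the integrated stress response, stood at 117, 95.8 and 107 CPM on NCD at 22 °C and at 161, 144 and 115 CPM on NCD at 4 °C. On HFD it stood at 123, 107 and 103 CPM at 22 °C and at 333, 114 and 123 CPM at 4 °C. HFD at 4 °C replicate 1 was 2.91 times the median of the other 11 libraries, and the highest of those was 161 CPM. The cold effect on HFD was a log2 fold change of 0.77 (adjusted p = 0.163, SE 0.34), and 0.12 without that library (adjusted p = 0.710). On NCD it was 0.39 (adjusted p = 0.569, SE 0.34).

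Atf5 (chr7:44812256-44816658, minus strand), a relative of ATF4 with a role in the mitochondrial stress response, was one of 2 members that rose in the cold on HFD. It stood at 103, 87.4 and 78.2 CPM on NCD at 22 °C and at 157, 157 and 131 CPM on NCD at 4 °C. On HFD it stood at 95.0, 92.0 and 81.6 CPM at 22 °C and at 293, 104 and 182 CPM at 4 °C. In both diets every cold library was above every warm library of that diet. The rise on HFD was a log2 fold change of 1.11 (adjusted p = 0.0283, SE 0.28), and on NCD the value was 0.73 (adjusted p = 0.149, SE 0.28). The exact permutation test gave p = 0.1 for each, the smallest that 3 libraries against 3 allow.

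The rise of Atf5 on HFD was no longer called without HFD at 4 °C replicate 1 (log2 fold change 0.71, adjusted p = 0.0866) or replicate 3 (1.15, adjusted p = 0.0577), nor without HFD at 22 °C replicate 1, 2 or 3 (adjusted p = 0.0643, 0.0751 and 0.0857). It also lost its call with the level of skeletal muscle markers as a term in the fit (1.03, adjusted p = 0.0530). With only the 6 libraries of each comparison, edgeR called Atf5 in the cold on NCD (0.73, adjusted p = 0.0250) and not on HFD (1.12, adjusted p = 0.104). The rise on NCD was also called without HFD at 4 °C replicate 2 (adjusted p = 0.0364). The interaction, the difference between the cold effects on the 2 diets, was 0.38 (adjusted p = 0.900, SE 0.39). Atf5 overlaps Nup62 over 571 bases and Il4i1 over 272 bases on the other strand.

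Asns, Trib3, Sesn2 and Chac1 are known ATF4 targets. Asns (chr6:7675169-7693254, minus strand) encodes asparagine synthetase, which makes asparagine from aspartate and glutamine. It stood at 67.6, 58.4 and 58.8 CPM on NCD at 22 °C and at 69.4, 59.9 and 74.6 CPM on NCD at 4 °C. On HFD it stood at 51.7, 54.3 and 35.6 CPM at 22 °C and at 131, 67.2 and 80.6 CPM at 4 °C, so that all 3 cold libraries lay above all 3 warm ones. Asns rose in the cold on HFD, with a log2 fold change of 0.98 (adjusted p = 0.0205, SE 0.23), and on NCD the value was 0.14 (adjusted p = 0.789, SE 0.23).

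The rise of Asns was 0.68 on the log2 scale without HFD at 4 °C replicate 1 (adjusted p = 0.0610) and 0.81 without HFD at 22 °C replicate 3 (adjusted p = 0.0679), and it was called when any other library was left out. With the level of skeletal muscle markers as a term in the fit it was 0.76 and still called (adjusted p = 0.0334). At 22 °C the HFD libraries were all below the NCD libraries, with a log2 fold change of -0.39 (adjusted p = 0.405, SE 0.23). The interaction was 0.83 (SE 0.32), with an unadjusted p of 0.0251 and an adjusted p of 0.716, so the diets were not shown to differ in their response of Asns to cold.

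Trib3 (chr2:152337422-152344032, minus strand), a pseudokinase that restrains ATF4 and insulin signalling, rested on 1 mouse. It stood at 6.35, 5.93 and 6.86 CPM on NCD at 22 °C, at 7.05, 4.53 and 5.16 CPM on NCD at 4 °C and at 7.15, 5.49 and 7.51 CPM on HFD at 22 °C. On HFD at 4 °C it stood at 48.3, 6.69 and 10 CPM. The first of these was 5.78 times the mean of the other 2, and replicate 2 lay within the range of the warm libraries. The log2 fold change was 1.68 (adjusted p = 0.0826, SE 0.58) for cold on HFD and 1.96 (adjusted p = 0.0769, SE 0.58) for HFD at 4 °C. Without HFD at 4 °C replicate 1 the values were 0.35 (adjusted p = 0.419) and 0.62 (adjusted p = 0.234).

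Sesn2 (chr4:132492032-132510501, minus strand) encodes a leucine sensor that inhibits mTORC1, and it was the member called for diet. It stood at 19.3, 15.1 and 22.6 CPM on NCD at 22 °C and at 18.4, 22.4 and 20.0 CPM on NCD at 4 °C. On HFD it stood at 29.0, 23.7 and 17.8 CPM at 22 °C and at 58.2, 29.3 and 34.1 CPM at 4 °C. All 3 libraries of HFD at 4 °C lay above the other 9. In the cold, HFD libraries were higher than NCD libraries by a log2 fold change of 1.00 (adjusted p = 0.0490, SE 0.26), and at 22 °C by 0.30 (adjusted p = 0.593, SE 0.26).

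That call of Sesn2 lay at the threshold. It held without HFD at 22 °C replicate 3 or HFD at 4 °C replicate 2, and was lost when any of the other 10 libraries was left out, with adjusted p up to 0.170 (log2 fold change 0.68) without HFD at 4 °C replicate 1. With batch as a term the adjusted p was 0.0521. The cold effect on HFD was 0.79 (adjusted p = 0.0716, SE 0.26), which passed when same-numbered mice of a diet were treated as pairs (adjusted p = 0.0240), and the interaction was 0.71 (adjusted p = 0.805, SE 0.37). Sesn2 shares 6089 bases with Gm12981, an RNA gene annotated on the same strand, and how reads were divided between them is not known. Over the 12 libraries, the genes whose standardised log2 levels were most like those of Sesn2 were Urb2, Slc4a3 and Snn, with root mean square differences of 0.319, 0.339 and 0.341 SD. Each of these had its highest level in HFD at 4 °C replicate 1, at 22.1, 14.2 and 22.3 CPM. They were chosen for likeness to Sesn2 over the same 12 libraries, so this is not a separate result.

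Chac1 (chr2:119351229-119354381, plus strand) encodes an enzyme that degrades glutathione. It stood at 1.62, 4.53 and 1.79 CPM on NCD at 22 °C, at 2.69, 13.8 and 0.663 CPM on NCD at 4 °C, at 1.80, 1.73 and 8.50 CPM on HFD at 22 °C and at 12.8, 1.76 and 2.45 CPM on HFD at 4 °C. A single library stood high in each group, and the groups overlapped in all 4 comparisons. The cold effects were 1.10 on NCD and 0.45 on HFD on the log2 scale, with SE of 1.08 and 1.04 (adjusted p = 0.628 and 0.812). The intervals of these differences ran from -1.26 to 3.46 and from -1.83 to 2.74.

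In 3 of the 4 groups, the library high in Chac1 was also the one with the most skeletal muscle transcripts. The summed level of 12 muscle markers was 17685 CPM in NCD at 22 °C replicate 2, 9410.1 CPM in NCD at 4 °C replicate 2 and 18633 CPM in HFD at 22 °C replicate 3, against 5567 CPM or less in the other 9 libraries. In HFD at 4 °C replicate 1, where Chac1 stood at 12.8 CPM, the muscle sum was 602 CPM, the lowest of the 12. None of the 12 muscle markers was at 0 in every library. The sums of the groups ranged from 2934 to 17685 CPM (NCD at 22 °C), from 1274 to 9410.1 CPM (NCD at 4 °C), from 2027 to 18633 CPM (HFD at 22 °C) and from 602 to 5567 CPM (HFD at 4 °C). The part of muscle in the Chac1 levels was not tested beyond a muscle term in the fit.

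**Figure D2:**
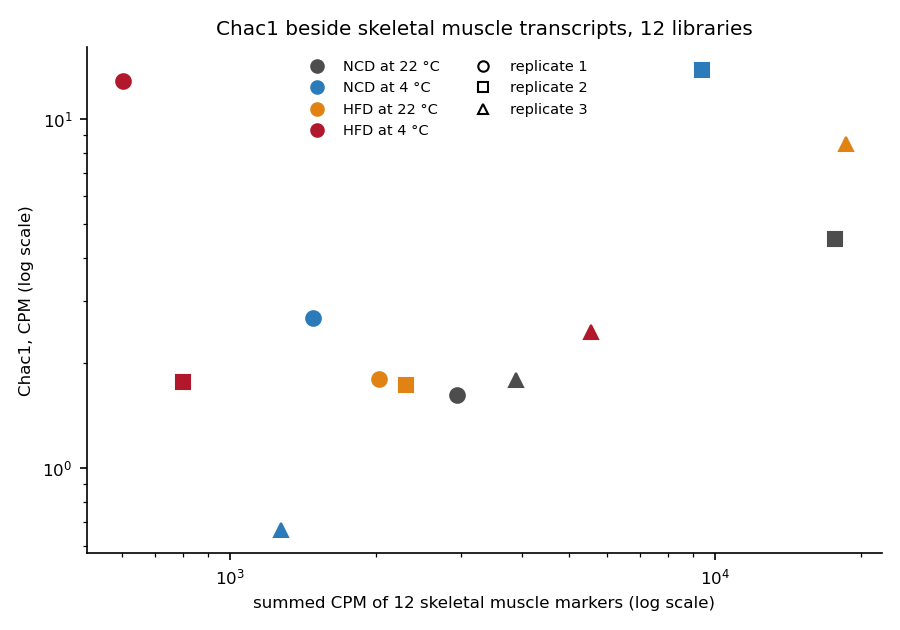
Chac1 level (y axis, CPM, log scale) against the summed level of 12 skeletal muscle markers (x axis, CPM, log scale) in the 12 libraries. Colours are groups and shapes are replicates. The 3 libraries with the largest muscle sums lie at 4.53, 13.8 and 8.50 CPM of Chac1, and HFD at 4 °C replicate 1 lies at the left with 12.8 CPM.

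The promoters of the members were searched for the C/EBP-ATF response element, TGATGNAA on either strand, to which ATF4 binds with a C/EBP partner. RefSeq windows (GRCm38.p6) from 250 bases before to 50 bases after the start were found for 9 of the 10 genes, in 10 windows. Of these windows 4 held the element, or 40%, against 3.97% of all 32851 windows. The matches lay in Atf3, Chac1 and Asns before the start and in Trib3 after it, and none was found in the windows of Atf4, Atf5, Ddit3, Xbp1 or Sesn2. The stretches before the start are shown for these 3 members, and for Fgf21 and Got1, described below as a hormone and an amino acid enzyme, with the element in capitals on the strand of the gene.
Asns (23 bases before the start, chr6:7693211-7693246, minus strand): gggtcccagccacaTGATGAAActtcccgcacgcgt
Atf3 (110 bases before the start, chr1:191183422-191183457, minus strand): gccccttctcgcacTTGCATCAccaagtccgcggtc
Chac1 (193 bases before the start, chr2:119351035-119351070, plus strand): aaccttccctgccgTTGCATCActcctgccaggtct
Fgf21 (139 bases before the start, chr7:45615608-45615643, minus strand): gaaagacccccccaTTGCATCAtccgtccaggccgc
Got1 (102 bases before the start, chr19:43524686-43524721, minus strand): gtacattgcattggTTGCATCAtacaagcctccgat
A match describes letters in the window and not binding. Asns with its element was called in the cold on HFD, Atf5 without a match was called as well, and Atf3 and Chac1 with matches were not.

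Taken over the 10 members, the test of any difference among the 4 groups called 0, against 2.55% of all genes tested. At an unadjusted p under 0.05 the count was 6 of 10, against 6513 of all 16737 genes. DESeq2's likelihood ratio test called Atf5, Trib3 and Sesn2, and 2625 of all 16737 genes. At an adjusted p under 0.05, edgeR gave Atf5, Trib3, Asns and Sesn2, or 4 of 10, against 24.3% of all genes.

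For cold on NCD, 0 members were called higher (3.72% of all genes) and 0 lower (2.55%), with 4 at an unadjusted p under 0.05, and DESeq2 called Xbp1. The groups did not overlap for 3 members, where they did not overlap for 27.8% of all genes. The median log2 fold change of the members was 0.27, beside -0.01 for all genes.

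For cold on HFD, Atf5 and Asns were called higher (2 of 10, against 5.39% of all genes) and 0 were called lower (4.19%). DESeq2, which called 2052 of all 16737 genes, added Trib3 and Sesn2, and the block of replicate number within diet added Sesn2. The groups did not overlap for 3 members, against 30.3% of all genes, and the median log2 fold change was 0.78, beside -0.04 for all genes. Without HFD at 4 °C replicate 1, Chac1 (-0.90), Ddit3 (-0.28) and Xbp1 (-0.08) were below 0. The other members then lay at 0.04 (Atf6), 0.12 (Atf4), 0.35 (Trib3), 0.45 (Atf3), 0.46 (Sesn2), 0.68 (Asns) and 0.71 (Atf5). Without HFD at 4 °C replicate 1 or HFD at 22 °C replicate 3, edgeR called 0 members, without HFD at 22 °C replicate 1 or 2 or HFD at 4 °C replicate 3 it called Asns alone, and without HFD at 4 °C replicate 2 it called 4. Over all genes, the counts were 1133, 1088 and 1139 without HFD at 22 °C replicates 1, 2 and 3. They were 1013, 1604 and 1121 without HFD at 4 °C replicates 1, 2 and 3. All 12 libraries gave 902 higher and 701 lower, so calls of other genes were lost as well. Within batch 1 alone, with 2 libraries per group, edgeR called 0 members and 416 of 16587 genes. The other batch holds 1 library per group and could not be tested.

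For HFD at 22 °C, 0 members were called higher (0.992% of all genes) or lower (1.09%) by edgeR or DESeq2, and 0 had an unadjusted p under 0.05. Non-overlap held for 1 member, Asns, against 25.9% of all genes. For HFD at 4 °C, Sesn2 was called higher (1 of 10, against 2.06% of all genes) and 0 were called lower (2.69%), while DESeq2 added Trib3. Non-overlap again held for 1 member, against 25.2% of all genes. The members' median was 0.12 at 22 °C and 0.41 at 4 °C, beside 0.03 and 0.02 for all genes. Without HFD at 4 °C replicate 1, Atf3 (-0.74), Atf4 (-0.21), Atf5 (-0.02), Atf6 (-0.29) and Chac1 (-1.39) were below 0 at 4 °C. Ddit3 (0.21), Xbp1 (0.32), Trib3 (0.62), Asns (0.15) and Sesn2 (0.68) were above 0. These comparisons share groups with the cold comparisons and are not independent of them.

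The interaction of diet and temperature called 0 members and 0% of all genes by edgeR. Of the members 3, Xbp1, Trib3 and Asns, had an unadjusted p under 0.05, as had 1091 of all genes. DESeq2 called 0 members and 58 of all 16737 genes.

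**Figure D3:**
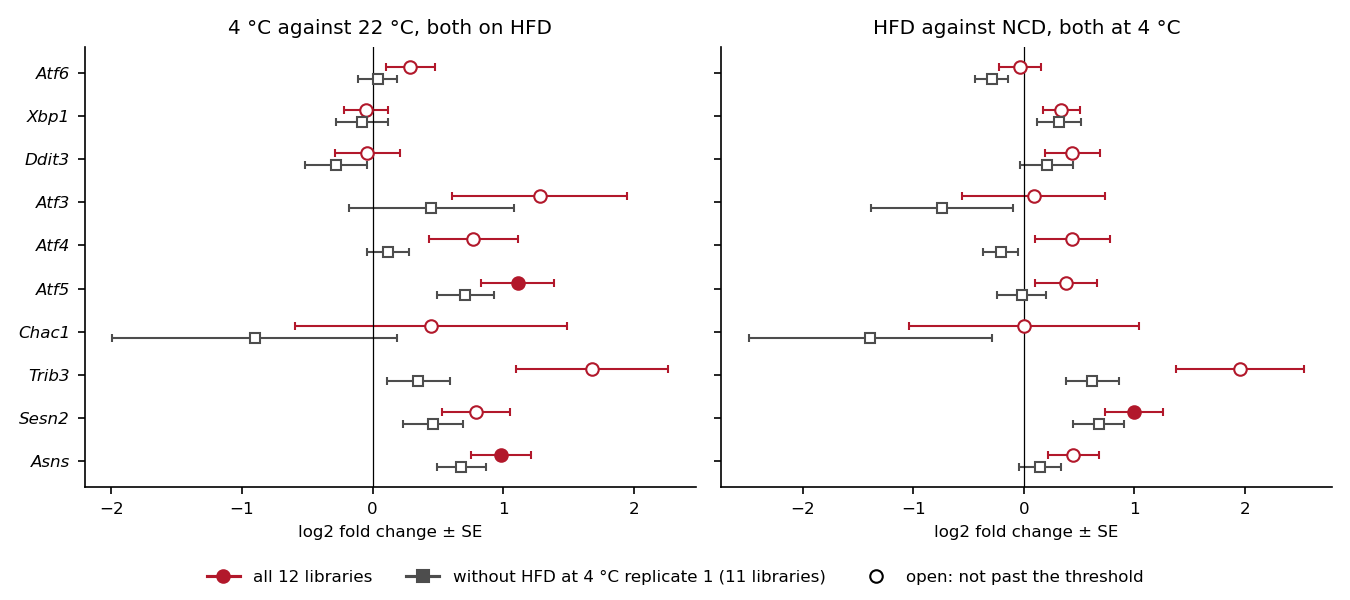
Log2 fold change ± SE (x axes) of the 10 genes for 4 °C against 22 °C on HFD (left) and for HFD against NCD at 4 °C (right). Red circles use all 12 libraries and grey squares leave out HFD at 4 °C replicate 1; filled symbols passed the threshold. Atf5 and Asns on the left and Sesn2 on the right are filled with all libraries, and no square is filled.

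Larger fold changes were called among other genes that ATF4 is known to raise. Of 22 tested genes of amino acid synthesis and transport, 8 rose and 1 fell in the cold on HFD, against 5.39% and 4.19% of all genes. The list median was 1.05 on the log2 scale, beside -0.04 for all genes. On NCD, 3.72% of all genes were called higher and 2.55% lower. On NCD, Slc3a2 alone was called, with a log2 fold change of 1.88 (adjusted p = 0.00207, SE 0.26), and the list median was -0.09. The count on NCD was 3 without HFD at 4 °C replicate 1, where Slc6a9 and Phgdh were called lower, 2 without NCD at 22 °C replicate 2, HFD at 22 °C replicate 3 or HFD at 4 °C replicate 2, and 4 by DESeq2. Without HFD at 4 °C replicate 1, 4 rose on HFD (Mthfd2, Psat1, Slc7a5 and Slc3a2) and 0 fell, with a median of 0.70. The number called on HFD was also 4 without HFD at 22 °C replicate 1 or 2.

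Mthfd2, a mitochondrial enzyme of one-carbon metabolism, stood at 2.19, 3.45 and 2.32 CPM on HFD at 22 °C and at 63.7, 11.8 and 31.0 CPM on HFD at 4 °C. Its log2 fold change was 3.74 (adjusted p = 0.00198, SE 0.54), and 3.05 without HFD at 4 °C replicate 1 (adjusted p = 0.00450). All 3 cold libraries lay above the warm ones, with replicate 1 the highest.

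Slc7a5, which pairs with Slc3a2 to import large neutral amino acids, stood at 0.322, 0.836 and 0.565 CPM on HFD at 22 °C and at 11.6, 1.89 and 2.98 CPM at 4 °C. The log2 fold change was 3.23 (adjusted p = 0.0128, SE 0.69), and 2.11 without HFD at 4 °C replicate 1 (adjusted p = 0.0370). Cth, an enzyme of cysteine synthesis, was at 1.42, 1.46 and 1.13 CPM in the warm and at 29.8, 1.89 and 3.19 CPM in the cold on HFD. Its value of 3.12 (adjusted p = 0.0356, SE 0.84) became 0.98 without that library (adjusted p = 0.0897), and Got1, the cytosolic aspartate aminotransferase (1.91, adjusted p = 0.0179, SE 0.44), Aldh18a1, Pck2 and the falling Slc1a5 also lost their calls (adjusted p from 0.0535 to 0.118).

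For HFD against NCD at 4 °C, 8 genes of this list were higher and 2, Slc1a5 and Psph, were lower, against 2.06% and 2.69% of all genes. The list median was 1.10, beside 0.02 for all genes. The largest were Psat1 at 3.30 (adjusted p = 0.00947, SE 0.57), Slc7a5 at 2.99 (adjusted p = 0.0314, SE 0.68) and Phgdh at 2.65 (adjusted p = 0.00555, SE 0.41). Psat1 and Phgdh are enzymes of serine synthesis. Phgdh stood at 4.70, 5.30 and 5.07 CPM on NCD at 4 °C and at 54.5, 14.4 and 25.7 CPM on HFD at 4 °C. Without HFD at 4 °C replicate 1, Psat1 (2.62, adjusted p = 0.0277) and Phgdh (2.03, adjusted p = 0.00890) were still called. The number called in the list, 10 with all libraries, was 5 without that library, 2 without NCD at 4 °C replicate 1, 1 without NCD at 4 °C replicate 3 and 6 without HFD at 4 °C replicate 3.

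Of 20 cytosolic aminoacyl-tRNA synthetases, which charge tRNAs with amino acids, 5 rose in the cold on HFD (Wars, Yars, Gars, Eprs and Nars), against 5.39% of all genes. On NCD 0 were called, where 3.72% of all genes were called higher and 2.55% lower. An unadjusted p under 0.05 was found for 2 on NCD, and DESeq2 called 0. Wars stood at 71.8, 73.1 and 51.6 CPM on HFD at 22 °C and at 202, 94.5 and 129 CPM on HFD at 4 °C. Its log2 fold change was 1.12 (adjusted p = 0.0105, SE 0.23), beside 0.96 for Yars and 0.91 for Gars. Without HFD at 4 °C replicate 1, all of these but Nars were called (Nars adjusted p = 0.0804). The count was 3 without HFD at 22 °C replicate 1 or 2. The list median was 0.28 on HFD and 0.04 on NCD, and without that library it was 0.12 on HFD.

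Among 14 further outputs of ATF4 and CHOP, Ero1l rose (log2 fold change 1.16, SE 0.21, adjusted p = 0.00573) and Nupr1 fell (-1.45, adjusted p = 0.00343, SE 0.23) in the cold on HFD. On NCD, Vldlr rose (0.69, adjusted p = 0.0332, SE 0.17) and Nupr1 fell (-1.49, adjusted p = 0.00467, SE 0.23). On each diet this was 1 of 14 higher and 1 lower. Of all genes, 5.39% were called higher and 4.19% lower on HFD, and 3.72% and 2.55% on NCD. The count on NCD was 1 when any NCD library at 22 °C, or NCD at 4 °C replicate 2 or 3, was left out, and the count on HFD was 4 without HFD at 4 °C replicate 2 or 3. Nupr1, a small stress-linked nuclear protein, thus moved against the direction of Asns and Atf5. It stood between 14.4 and 23.1 CPM in the 6 warm libraries and between 5.68 and 10 CPM in the 6 cold libraries.

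Gdf15, a circulating stress hormone, was higher on HFD at 4 °C than on NCD at 4 °C by a log2 fold change of 5.46 (adjusted p = 0.0286, SE 1.20). It was the 1 gene of these 14 called there, against 2.06% of all genes called higher. It stood at 0.688, 0.530 and 0.355 CPM on NCD at 4 °C, at 9.53, 1.62 and 1.33 CPM on HFD at 22 °C and at 55.4, 3.39 and 7.81 CPM on HFD at 4 °C. Every HFD library lay above every NCD library. Without HFD at 4 °C replicate 1 the value was 3.50 (adjusted p = 0.0947), and it also lost its call without NCD at 4 °C replicate 1, 2 or 3. Fgf21, a second hormone of this kind, was named after its values had been seen. It stood at 35.2 CPM in HFD at 4 °C replicate 1 and between 1.06 and 2.77 CPM in the other 11 libraries, with a log2 fold change in the cold on HFD of 2.96 (adjusted p = 0.0578, SE 0.91) with and 0.52 (adjusted p = 0.419) without that library.

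**Figure D4:**
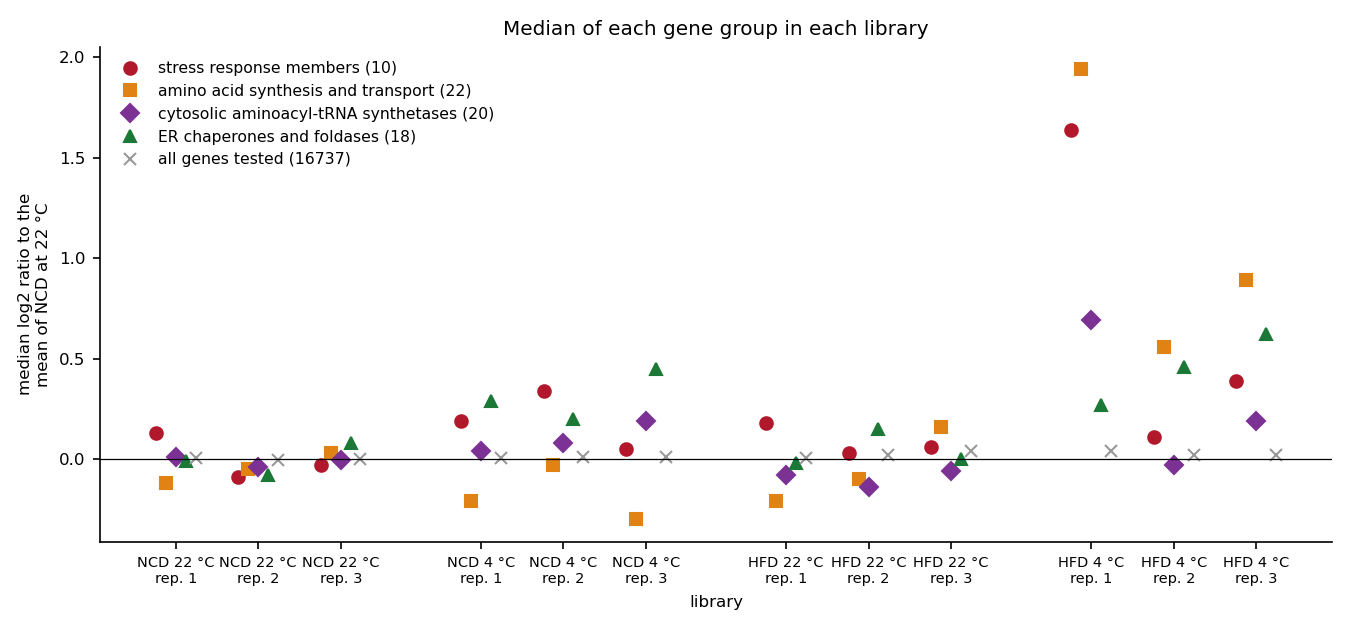
Median over each gene group (number of genes in the legend) of the log2 ratio to the mean of NCD at 22 °C (y axis) in each library (x axis). In HFD at 4 °C replicate 1 the 10 members lie at 1.64 and the amino acid genes at 1.94, above all other libraries, while the ER chaperones lie at 0.27, below HFD at 4 °C replicates 2 and 3 (0.46 and 0.62).

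The ER chaperones and foldases, the known targets of ATF6 and spliced XBP1, differed from the members in which libraries were high. HFD at 4 °C replicate 1 held the highest level of 0 of these 18 genes, against 15 of the 22 amino acid genes, 13 of the 20 synthetases and 13.9% of all genes. Another library, HFD at 4 °C replicate 3, held the highest level of 12 of the 18, or 66.7%, against 8.53% of all genes, and of 5 of the 8 macrophage markers. The part of that library's macrophage transcripts in the chaperone levels was not tested. In the cold on HFD 7 rose and 0 fell, against 5.39% of all genes called higher and 4.19% lower. A positive value was found for 17 of 18, against 46.3% of all genes. The median was 0.45, beside -0.04 for all genes. On NCD 4 rose and 0 fell, against 3.72% and 2.55% of all genes, with a median of 0.33 beside -0.01. Without HFD at 4 °C replicate 1, 8 rose on HFD, with a median of 0.51, and without replicate 3 of that group 5 were called.

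Sdf2l1, a cofactor of the chaperone BiP, showed the largest rise in the list on HFD. It stood at 1.67, 3.14 and 2.65 CPM at 22 °C and at 6.35, 5.72 and 9.37 CPM at 4 °C, a log2 fold change of 1.52 (adjusted p = 0.00930, SE 0.30). Manf, a secreted ER stress protein, rose by 1.05 (adjusted p = 0.00109, SE 0.13) on HFD and by 0.62 (adjusted p = 0.0176, SE 0.13) on NCD. Its levels on HFD were 29.8, 32.7 and 23.7 CPM at 22 °C and 59.2, 53.5 and 65.5 CPM at 4 °C, so that the 3 cold mice lay close together.

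The lectin chaperones Calr and Canx rose in both diets. Calr rose by 0.69 (adjusted p = 0.0151, SE 0.14) on NCD and 0.70 (adjusted p = 0.00996, SE 0.14) on HFD. Canx rose by 0.84 (adjusted p = 0.00267, SE 0.12) on NCD and 0.64 (adjusted p = 0.00715, SE 0.12) on HFD, and Dnajb9, a BiP cochaperone, by 0.98 (adjusted p = 0.0369, SE 0.25) on NCD. Hspa5, which encodes BiP itself, stood at 267, 286 and 300.1 CPM on HFD at 22 °C and at 395, 369.9 and 519 CPM at 4 °C (log2 fold change 0.59, SE 0.14, adjusted p = 0.0227), and was named after its values had been seen. The count on NCD, 4 genes, was 1 without NCD at 22 °C replicate 1 or 3, and 2 without NCD at 22 °C replicate 2 or NCD at 4 °C replicate 1 or 2. For diet, edgeR called 0 of the 18 at 22 °C (0 at an unadjusted p under 0.05, and 0 by DESeq2), against 0.992% of all genes higher and 1.09% lower. At 4 °C it called Sdf2l1 alone (1.23, adjusted p = 0.0398, SE 0.30), 1 of 18 against 2.06% of all genes called higher. Sdf2l1 was not called without HFD at 4 °C replicate 1 (1.34, adjusted p = 0.0842). The count at 4 °C was also 0 without any NCD library at 22 °C, NCD at 4 °C replicate 1 or 3, HFD at 22 °C replicate 2 or HFD at 4 °C replicate 3.

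**Figure D5:**
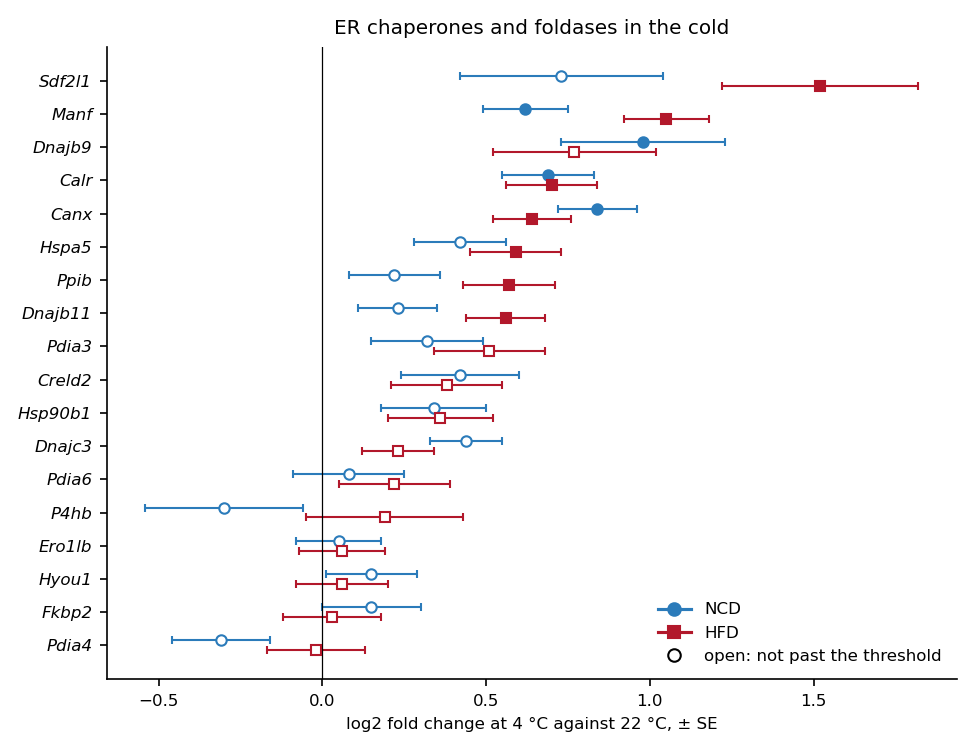
Log2 fold change ± SE at 4 °C against 22 °C (x axis) of 18 ER chaperones and foldases (y axis), on NCD (blue circles) and HFD (red squares). Filled symbols passed the threshold, 4 on NCD and 7 on HFD. Most values lie above 0 in both diets, up to 1.52 for Sdf2l1 on HFD.

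The promoters of these genes were searched for the ER stress response element, CCAAT followed after 9 bases by CCACG, on either strand. It was found in 7 of 17 windows of the list, or 41.2%, against 0.119% of all windows and 0 of the 10 windows of the members. The response element of ATF4 was found in 0 of these 17 windows. The matches lay in Hspa5, Canx and Calr, which were called in the cold, and in Creld2, Dnajc3, Hsp90b1 and Pdia6, which were not. No match was found in the windows of Sdf2l1, Ppib, Dnajb11 and Dnajb9, which were called, and Manf had no window among those searched. The stretches of the first 3 are shown as examples, with the element in capitals on the strand of the gene.
Hspa5 (65 bases before the start, chr2:34772011-34772057, plus strand): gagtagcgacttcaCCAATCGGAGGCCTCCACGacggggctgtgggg
Canx (145 bases before the start, chr11:50325786-50325832, minus strand): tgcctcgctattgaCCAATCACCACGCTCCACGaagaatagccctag
Calr (162 bases before the start, chr8:84847061-84847107, minus strand): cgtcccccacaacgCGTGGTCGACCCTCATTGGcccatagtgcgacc
No binding was measured here.

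The remaining arms of the response were counted in the same way. Of 14 genes of ER-associated degradation, Derl1 alone (1 of 14, against 2.69% of all genes called lower) was lower on HFD at 4 °C (-1.05, adjusted p = 0.00877, SE 0.18) and 0 were called in the other comparisons, with 4, 2 and 2 at an unadjusted p under 0.05 for cold on NCD, cold on HFD and HFD at 22 °C, and 0 by DESeq2. In the same order, 3.72%, 5.39% and 0.992% of all genes were called higher by edgeR, and 2.55%, 4.19% and 1.09% lower. Of 15 genes of ER translocation and export, 1 was called in each comparison. Of all genes, 3.72% were called higher in the cold on NCD and 5.39% on HFD, and for diet 0.992% at 22 °C and 2.06% at 4 °C. Sec62, a translocon subunit, rose in the cold on NCD (0.52, adjusted p = 0.0284, SE 0.12) and on HFD (0.71, adjusted p = 0.00516, SE 0.12). Sec62 was called on NCD without NCD at 4 °C replicate 1, HFD at 4 °C replicate 2 or any HFD library at 22 °C, and not without the other 7. Sec24d, a coat protein of export vesicles, was higher on HFD at 22 °C (0.90, adjusted p = 0.0174, SE 0.16) and at 4 °C (1.24, adjusted p = 0.00245, SE 0.16). The former was not called without NCD at 22 °C replicate 2 or 3 or HFD at 22 °C replicate 1 or 2.

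Of 12 mitochondrial chaperones and proteases, 3 rose in the cold on NCD, against 3.72% of all genes. These were Dnaja3, Hspe1 and Hspd1, by 0.89, 0.72 and 0.58 on the log2 scale (adjusted p = 0.00321, 0.0221 and 0.0484). On HFD, Dnaja3 rose (0.66, adjusted p = 0.00915, SE 0.13) and Spg7 fell (-0.56, adjusted p = 0.0211, SE 0.13), against 5.39% and 4.19% of all genes. Clpp was lower on HFD than on NCD at 4 °C (-0.53, adjusted p = 0.0273, SE 0.11), where 2.69% of all genes were called lower. The count on NCD, 3 genes, was 1 without NCD at 22 °C replicate 1 or 2 or NCD at 4 °C replicate 1 or 3. Without HFD at 4 °C replicate 1, Spg7 and Clpp were not called (adjusted p = 0.0919 and 0.132), and Clpp was also lost without NCD at 4 °C replicate 1 or 3 or HFD at 4 °C replicate 3. The count on HFD was 1 without any of the 3 HFD libraries at 22 °C or HFD at 4 °C replicate 3, and 4 without HFD at 4 °C replicate 2. Atf5, whose protein is linked to this arm, was called in the cold on HFD and not on NCD with all 12 libraries. With only the 6 libraries of each comparison the calls were the other way round, and the difference between the diets was not shown.

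Markers of other cells were compared for the library in which the members stood highest. The sum of 8 macrophage markers ranged from 129 to 162 CPM on NCD at 22 °C, from 93.1 to 121 CPM on NCD at 4 °C, from 134 to 182 CPM on HFD at 22 °C and from 125 to 266 CPM on HFD at 4 °C. In HFD at 4 °C replicate 1, 0 of the brown adipocyte, muscle, macrophage, lymphocyte and Schwann cell markers tested, and 2 of the 5 endothelial markers, had their highest level. Of the macrophage list, Cd68 was called higher in the cold on HFD (1.72, adjusted p = 0.0319), the comparison in which Atf5 and Asns were called, and Itgam and Mrc1 on HFD against NCD at 4 °C (1.19 and 1.10, adjusted p = 0.0452 and 0.0497). None of the 3 was called without HFD at 4 °C replicate 1 (adjusted p = 0.0957, 0.138 and 0.0857). The sum of 5 endothelial markers ranged from 478 to 592 CPM on NCD at 22 °C, from 688 to 777 CPM on NCD at 4 °C, from 666 to 914 CPM on HFD at 22 °C and from 914 to 1037 CPM on HFD at 4 °C. Pecam1 of that list was called higher in the cold on NCD (0.58, adjusted p = 0.0101) and on HFD at 22 °C (0.72, adjusted p = 0.00786). The part of macrophage and endothelial transcripts in the differences of the members, in the cold or between the diets, was not tested.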

How the data were processed

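Total RNA-seq of iBAT was analysed in 12 libraries, 3 mice for each of 4 groups taken from the sample labels. Read trimming was done by the authors with cutadapt. They then ran salmon on GENCODE M22 with RNAcentral 5, and deposited 1 estimated count (expected count) per gene and library, in whole numbers and without normalisation. Library totals were 15136861 to 46740702.

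Genes were filtered with filterByExpr (minimum count 10), scaled by TMM and fitted with edgeR 4.0.16 (quasi-likelihood, 4 group means) in R 4.3.3. DESeq2 was an alternative. Log2 ratios per library used a prior count of 2. The scripts were tested on simulated data. Within a diet, deviations of same-numbered libraries correlated at 0.155 to 0.456 across temperature. Across diets they correlated at -0.214 to 0.365, with replicate 1 at 0.178 to 0.365. Differently numbered libraries were not compared, and the labels give replicate numbers without a pairing of mice. Pairing by replicate number was therefore an alternative setting and was not shown. The members, the gene lists and the tests were chosen with earlier results of these data known. Named genes were all members, up to 3 called genes per list and comparison with the largest change, and the 3 genes most like Sesn2, the member with the smallest p among the groups. Fgf21, Hspa5, Got1, Aldh18a1, Pck2, Slc1a5, Eprs, Nars, Eif2b4, Eif2b5, Slc6a9, Ppib, Dnajb11, Creld2, Dnajc3, Hsp90b1 and Pdia6 fall outside this rule and were named after their values had been seen. Positions are from GENCODE M21 and promoters from RefSeq.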

Additional observations from a re-analysis of the deposited data

How the results depend on the processing

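Of the comparisons of a member under another setting, 1202 kept their direction and side of the threshold, 24 gained a call, 26 lost one and 68 changed sign. The cause of these changes was not tested, except that fits within batch 1 alone, on 6 libraries or without a library hold fewer samples. For the difference among the 4 groups, DESeq2 called 3 members and an adjusted p under 0.05 gave 4, against 2625 and 4067 of all 16737 genes. For cold on NCD, 1 member was called in each of 4 settings, and it was not the same one. It was Xbp1 by DESeq2 and with a skeletal muscle score as a term, Atf3 without a filter and Atf5 with only the 6 libraries compared. In that order, these settings called 1446, 1129, 1062 and 1037 of all genes they tested. For cold on HFD, 4 were called by DESeq2 and without a filter, 1 (Asns) with the muscle score, and 0 in batch 1 alone and with 6 libraries. Over all genes, these settings called 2052 of 16737, 1616 of 37458, 1656 of 16737, 416 of 16587 and 855 of 16206. For HFD at 4 °C, 2 were called by DESeq2 and without a filter, and 0 with batch as a term, in batch 1 alone, with replicate number as a block and with 6 libraries. Over all genes, these called 1323 of 16737, 782 of 37458, 917 of 16737, 53 of 16587, 856 of 16737 and 149 of 15696.

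With each library left out in turn, the number of members called ran from 0 to 1 for cold on NCD, from 0 to 4 for cold on HFD and from 0 to 2 for HFD at 4 °C. The number of all genes called ran from 490 to 1112, from 1013 to 1672 and from 239 to 992. Counts of the lists with a library left out are to be read beside these. With the replicate block (mice of the same number paired), Asns in the cold on HFD was 0.94 (edgeR adjusted p = 0.0175), Atf5 1.05 (adjusted p = 0.0254) and Sesn2 for HFD at 4 °C 0.95 (adjusted p = 0.0543). Pairing within diet added the call of Sesn2 for cold on HFD (0.76, adjusted p = 0.0240) and changed no other call of a member.

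Signs changed at these log2 fold changes. With the muscle score, Asns and Sesn2 for cold on NCD were -0.02 and -0.03, Atf5 for HFD at 22 °C -0.02, Atf3 for HFD at 4 °C -0.0015 and the Chac1 interaction 0.79. In batch 1 alone, Ddit3 for cold on HFD was 0.01, Atf5 and Chac1 for HFD at 22 °C -0.03 and -0.81, Atf3, Atf6 and Chac1 for HFD at 4 °C -0.10, 0.06 and -0.18, and the Chac1 interaction 0.63. Atf5 for HFD at 22 °C was -0.02 with DESeq2, with its size factors and without a filter, and -0.03 with a mean of at least 10 counts. Chac1 for HFD at 4 °C was -0.02 with DESeq2 and -0.01 in the other 3 of these. The Ddit3 interaction was -0.0043 with pairing within diet.

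With a library left out, the ranges that crossed 0 were as follows. For cold on NCD, Ddit3 ran from -0.22 to 0.05, Sesn2 from -0.05 to 0.24 and Chac1 from -0.71 to 1.71. For cold on HFD, Ddit3 ran from -0.28 to 0.20, Xbp1 from -0.14 to 0.15 and Chac1 from -0.90 to 1.67. For HFD at 22 °C, Atf4 ran from -0.06 to 0.11, Atf5 from -0.12 to 0.08, Trib3 from -0.02 to 0.20 and Chac1 from -0.57 to 1.26. For HFD at 4 °C, Atf3 ran from -0.74 to 0.88, Atf4 from -0.21 to 0.70, Atf5 from -0.02 to 0.68, Atf6 from -0.29 to 0.17 and Chac1 from -1.39 to 1.81. For the interaction, Atf3 ran from -1.36 to 0.25, Atf4 from -0.24 to 0.65, Atf6 from -0.42 to 0.04, Ddit3 from -0.17 to 0.27 and Chac1 from -1.99 to 1.17. With 3 mice per group and 1 library that stood apart, no called member was called under every alternative. Chac1, Trib3 and Atf3 rest on few counts in the shallower libraries, down to 26, 77 and 69.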
